A study of Drosophila melanogaster with 48 samples.

Results

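The RNA of 10 Drosophila genes that repair broken DNA or signal its presence was followed in 2 embryo-derived cell lines, S2 and S3, after dsRNA against a subunit of the RNA exosome. The genes were Ku80 (FBgn0041627), Irbp (FBgn0011774), PolZ1 (FBgn0002891), mre11 (FBgn0020270), rad50 (FBgn0034728), nbs (FBgn0261530), lok (FBgn0019686), mei-41 (FBgn0004367), tefu (FBgn0045035) and Xrp1 (FBgn0261113). They were found by FlyBase gene ID, and all 10 were present among the 15065 gene IDs of the count tables. The chromosome positions of the genes in the build used for the counts, dm3, and their sequences were not used here.

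The exosome degrades and trims RNA from its 3′ end. Rrp6 is one of its exonucleases, and Csl4 and Rrp40 belong to the cap that binds RNA on the core ring. Cells of both lines received dsRNA against Rrp6, Rrp40 or Csl4, or dsRNA against GFP, a jellyfish gene that flies lack, as the control. The dose was 2 μg, and the cells were collected 5 days later. RNA was either poly(A)+ or depleted of ribosomal RNA (RiboMinus). S2 poly(A) RNA gave 2 libraries for Rrp6, 1 for Rrp40, 2 for Csl4 and 2 for GFP. S3 poly(A) RNA gave 2 libraries each for Rrp6, Rrp40 and Csl4 and 3 for GFP, and S3 RiboMinus RNA gave 2 in each group. S2 RiboMinus RNA gave 1 library per group and therefore no test.

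Broken DNA ends are captured either by the Ku heterodimer, which channels them into end joining, or by the complex of Mre11, Rad50 and Nbs, which trims and tethers them. The kinases of the ATM and ATR families, tefu and mei-41 in flies, are activated at breaks and at stalled forks, and they pass the signal to effector kinases such as Chk2, encoded by lok. In flies, the transcription factor Xrp1 is induced by ionizing radiation and takes part in cell competition.

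Libraries differed widely in depth, between 67743 and 69426568 reads in genes. The lowest depths were in S2 RiboMinus RNA and in the shallower S3 RiboMinus libraries. In each tested group with 2 libraries, one was deeper and one shallower, and this depth class entered the fit as a block. The labels' text states that knockdown was checked by Western blot. That is a check of protein, whereas reads measure RNA. Reads over the targeted gene stood above every GFP library of the same line and RNA fraction in 19 of 20 libraries given its dsRNA and below in 1. Rrp6 had 181 to 183565 CPM (reads scaled to a common library size of 1000000) in libraries labelled Rrp6, against 28.9 to 103 with GFP. Whether such reads came from the mRNA or from the added dsRNA was not tested. Groups are therefore named here as the libraries are labelled. In such bulk RNA, fewer cells of a type and less RNA per cell cannot be told apart. Of 11 hemocyte genes, typical of the lineage S2 cells resemble, between 6 and 11 had reads in each library. In S2 poly(A) RNA their summed level was 2927 to 3822 CPM in libraries labelled Rrp6 and 2517 to 3246 CPM in GFP libraries. NimC1 and gcm, which mark hemocytes, were at or near 0.

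With dsRNA labelled Rrp6, both Ku subunits, the Rad50 and Nbs subunits and the catalytic subunit of DNA polymerase zeta had more RNA than in GFP cells. The fit with the depth block put them at 2 to 4 times the GFP level in every fitted set. Within a single depth class, where a ratio could be formed, it ran from 1.14 (Ku80, shallower RiboMinus libraries) to 6.32 (PolZ1, deeper S3 poly(A) libraries). The Chk2 kinase gene lok had less RNA, at fitted log2 changes between -1.33 and -1.27. Mre11 changed less. The ATM kinase gene tefu passed the test given next in 1 set and the ATR kinase gene mei-41 in none. A gene is called where edgeR's quasi-likelihood test gave a Benjamini-Hochberg adjusted p of at most 0.05 over all genes of the set. Sets are given below in 1 order, the poly(A) set of S2, then the poly(A) set of S3, then the RiboMinus set of S3. By this rule 7, 7 and 6 of the 10 members were called higher in them, and 1, 1 and 1 lower. Among all genes tested, the shares called higher were 20.2%, 19.7% and 12.4%, and the shares called lower 16.9%, 16.4% and 7.35%. The median log2 change of the members was 1.12, 1.22 and 1.15, beside -0.048, 0.0084 and 0.067 over all genes tested.

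These calls depended on the depth block. Without it, 0, 4 and 0 members were called in the 3 sets, all 4 of them higher, and the shares of all genes called either way were 0.114%, 13.6% and 0.181%. The log2 changes of the called members moved by at most 0.20 between these fits. The authors' deposited table called no member in any of its 12 comparisons at the same threshold, and its lowest adjusted p for a member was 0.0605, for PolZ1 in S3 poly(A) RNA under Rrp6. In the authors' deposited tables for Rrp6, 0.462% of genes were called in poly(A) RNA of S2 and 0% in its RiboMinus RNA, and for S3 the shares were 2.45% and 2.8%.

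**Figure D1:**
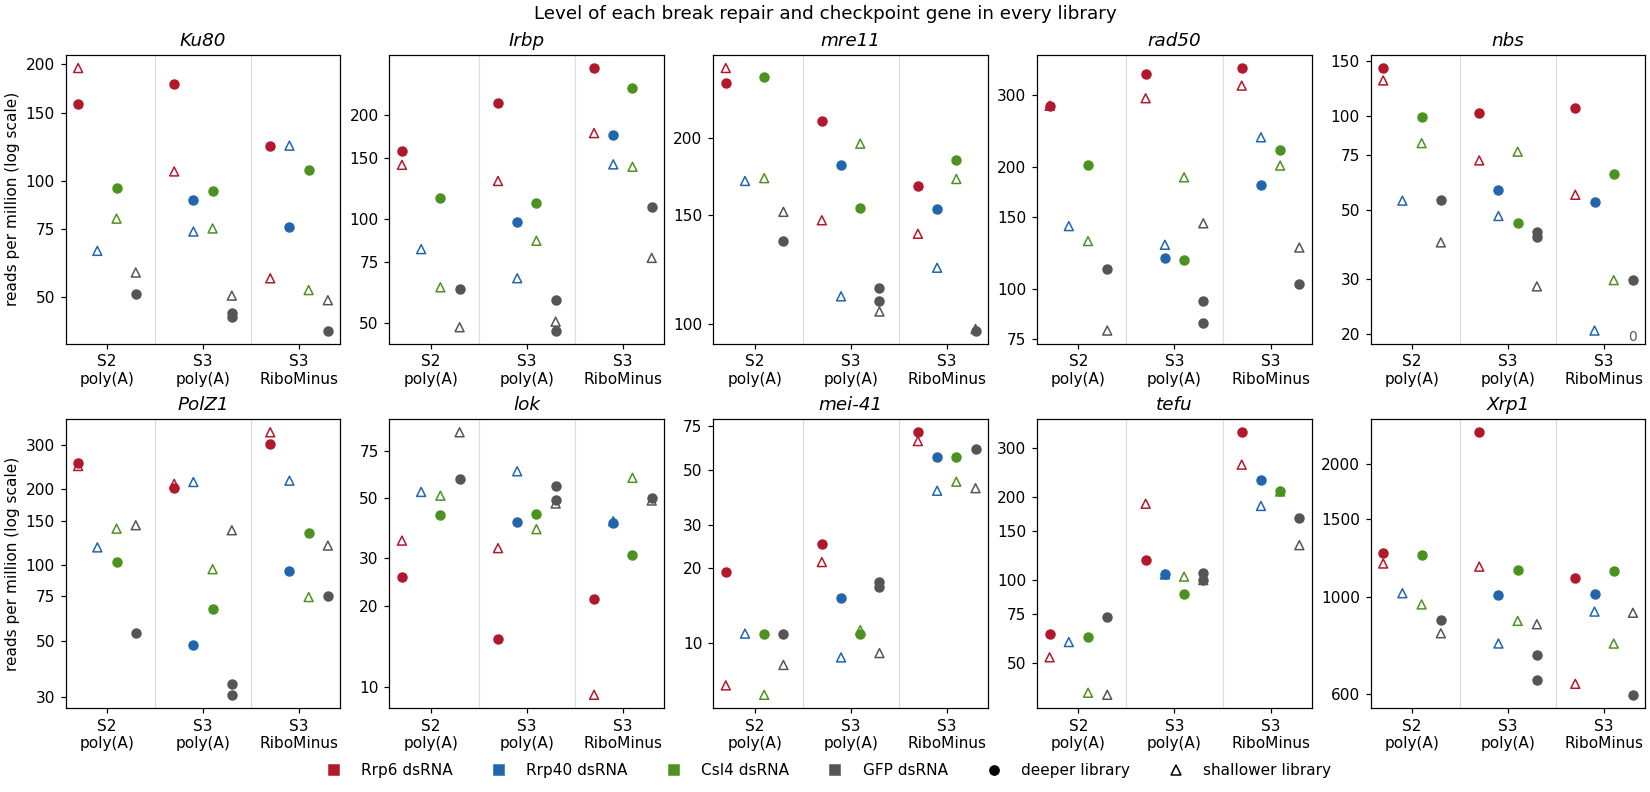
Level of each of the 10 genes in every library of the 3 fitted sets, in CPM on a log axis, with libraries labelled Rrp6, Rrp40, Csl4 and GFP from left to right. Filled circles are deeper and open triangles shallower libraries, and a 0 marks nbs in the shallower GFP library of S3 RiboMinus RNA. For Ku80, Irbp, PolZ1, mre11, rad50 and nbs every library labelled Rrp6 sits above every GFP library of its set, and for lok every one sits below.

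Ku80 and Irbp encode the Ku80 and Ku70 subunits of the fly Ku heterodimer. Values of a group are given for its deeper library first. Ku80 had 158 and 196 CPM in S2 poly(A) libraries labelled Rrp6, 65.9 CPM in the one labelled Rrp40, and 96.1 and 79.9 CPM in those labelled Csl4, against 51.0 and 57.9 CPM in GFP libraries. In S3 poly(A) RNA it had 178 and 106 CPM with Rrp6, 89.0 and 74.0 CPM with Rrp40, and 94.1 and 75.3 CPM with Csl4, against 45.6, 44.6 and 50.5 CPM with GFP. In S3 RiboMinus RNA it had 123 and 56.0 CPM with Rrp6, 76.1 and 123 CPM with Rrp40, and 107 and 52.2 CPM with Csl4, against 41 and 49.1 CPM with GFP. In all 3 sets every library labelled Rrp6 lay above every GFP library, although the shallower RiboMinus libraries held few reads, 6 of 114733 with Rrp6 and 7 of 138219 with GFP. Ku80 rose with Rrp6 by a log2 change of 1.70 ± 0.24 (standard error; edgeR adjusted p = 9.4e-06), 1.66 ± 0.24 (adjusted p = 0.00095) and 1.35 ± 0.36 (adjusted p = 0.0022) in the 3 sets. The RiboMinus call was lost without the deeper library labelled Rrp6 (0.46, adjusted p = 0.791) and without the deeper GFP library (0.78, adjusted p = 0.574).

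Irbp had 157 and 143 CPM in S2 poly(A) libraries labelled Rrp6, 81.8 CPM with Rrp40, and 115 and 63.5 CPM with Csl4, against 62.9 and 48.7 CPM with GFP. The S3 poly(A) values were 217 and 129 CPM with Rrp6, 98.3 and 67.4 CPM with Rrp40, and 112 and 86.5 CPM with Csl4, against 58.2, 47.6 and 50.5 CPM with GFP. The S3 RiboMinus values were 273 and 177 CPM with Rrp6, 174 and 144 CPM with Rrp40, and 240 and 142 CPM with Csl4, against 108 and 77.2 CPM with GFP. Libraries labelled Rrp6 again stood clear of the GFP libraries in each set. Irbp rose with Rrp6 by 1.43 ± 0.24 (adjusted p = 9.4e-05), 1.798 ± 0.23 (adjusted p = 0.00062) and 1.298 ± 0.33 (edgeR adjusted p = 0.00097) on the log2 scale in the same order of sets. Its RiboMinus call was lost without the deeper library labelled Rrp6 (1.26, adjusted p = 0.12) or without the deeper GFP one (1.23, adjusted p = 0.169).

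The rad50 gene encodes the coiled-coil ATPase of the complex with Mre11 and Nbs. It had 282 and 283 CPM in S2 poly(A) libraries labelled Rrp6, 143 CPM with Rrp40, and 202 and 131 CPM with Csl4, against 112 and 78.8 CPM with GFP. Poly(A) RNA of S3 held 340 and 295 CPM with Rrp6, 119 and 128 CPM with Rrp40, and 118 and 188 CPM with Csl4, against 93.4, 82.2 and 145 CPM with GFP. RiboMinus RNA of S3 held 350 and 317 CPM with Rrp6, 180 and 236 CPM with Rrp40, and 220 and 201 CPM with Csl4, against 103 and 126 CPM with GFP. The Rrp6 values lay above those of all other groups in each set. The log2 changes with Rrp6 were 1.57 ± 0.23 (adjusted p = 1.6e-05), 1.59 ± 0.25 (adjusted p = 0.0015) and 1.63 ± 0.31 (edgeR adjusted p = 5.9e-06). Without the deeper GFP library the RiboMinus change was 1.43 with an adjusted p of 0.0741.

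The nbs gene encodes the Nbs1 homolog, the subunit that links the complex to the ATM kinase. It had 143 and 130 CPM in S2 poly(A) libraries labelled Rrp6, 53.6 CPM with Rrp40, and 99.5 and 81.9 CPM with Csl4, against 54.0 and 39.4 CPM with GFP. Its S3 poly(A) values were 102 and 72.1 CPM with Rrp6, 58.1 and 47.9 CPM with Rrp40, and 45.6 and 76.9 CPM with Csl4, against 40.9, 42.7 and 28.5 CPM with GFP. Its S3 RiboMinus values were 106 and 56.0 CPM with Rrp6, 53.1 and 20.6 CPM with Rrp40, and 65.1 and 29.8 CPM with Csl4, against 29.8 and 0 CPM with GFP. The 0 stood for no read among 138219, which allows up to 21.1 CPM at 3 reads, and the 56.0 CPM rested on 6 reads. These limits cover counting error only. The log2 changes with Rrp6 were 1.52 ± 0.23 (adjusted p = 3.2e-05), 1.22 ± 0.29 (adjusted p = 0.0091) and 1.97 ± 0.40 (edgeR adjusted p = 2.1e-05). The last is a fitted value that takes in the control library at 0. In the deeper RiboMinus libraries alone the ratio of Rrp6 to GFP was 3.55. The S3 poly(A) call was lost without the deeper library labelled Rrp6 (0.87, adjusted p = 0.177). The RiboMinus call was lost without the deeper GFP library (adjusted p = 0.0734), when only the control at 0 remained and the fitted change has no meaning as a size.

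The nuclease gene mre11 changed least of the 3 subunits. It had 245 and 259 CPM in S2 poly(A) libraries labelled Rrp6, 170 CPM with Rrp40, and 250 and 172 CPM with Csl4, against 136 and 152 CPM with GFP. Levels in S3 poly(A) RNA were 213 and 147 CPM with Rrp6, 180 and 111 CPM with Rrp40, and 154 and 195 CPM with Csl4, against 114, 109 and 105 CPM with GFP. Levels in S3 RiboMinus RNA were 167 and 140 CPM with Rrp6, 154 and 123 CPM with Rrp40, and 184 and 171 CPM with Csl4, against 97.7 and 98.3 CPM with GFP. Every library of the 3 exosome dsRNAs lay above the GFP libraries of its set except the shallower one labelled Rrp40 in S3 poly(A) RNA, at 111 CPM, which lay among them. The log2 change with Rrp6 was 0.81 ± 0.22 (adjusted p = 0.0064) in S2, 0.75 ± 0.25 (adjusted p = 0.042) in S3 poly(A) RNA, and 0.70 ± 0.33, not called, in RiboMinus RNA (edgeR adjusted p = 0.12). In S2 the call was lost without the deeper GFP library (0.63, adjusted p = 0.136) or the shallower library labelled Rrp6 (0.66, adjusted p = 0.055). The S3 poly(A) call was lost without any one of the 3 GFP libraries, either library labelled Rrp6 or the shallower one labelled Rrp40, with log2 changes between 0.51 and 0.77 and adjusted p between 0.0575 and 0.32.

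PolZ1 encodes the catalytic subunit of DNA polymerase zeta, which copies past damaged bases. It had 255 and 247 CPM in S2 poly(A) libraries labelled Rrp6, 117 CPM with Rrp40, and 103 and 139 CPM with Csl4, against 53.8 and 144 CPM with GFP. S3 poly(A) libraries held 203 and 210 CPM with Rrp6, 48.1 and 213 CPM with Rrp40, and 67.0 and 96.1 CPM with Csl4, against 30.5, 33.7 and 137 CPM with GFP. S3 RiboMinus libraries held 301 and 336 CPM with Rrp6, 94.9 and 216 CPM with Rrp40, and 134 and 74.5 CPM with Csl4, against 75.02 and 119 CPM with GFP. In GFP cells the shallower library was the higher one in each set, at 137 CPM against 30.5 and 33.7 CPM in S3 poly(A) RNA, so the ratio of Rrp6 to GFP depended on the depth class. In the deeper class it was 4.73, 6.32 and 4.02 in the 3 sets, and in the shallower class 1.72, 1.53 and 2.81. PolZ1 rose with Rrp6 by log2 changes of 1.57 ± 0.27 (adjusted p = 0.00012), 1.89 ± 0.43 (adjusted p = 0.0085) and 1.84 ± 0.32 (edgeR adjusted p = 5.7e-07). In S2 the change was 0.91 without the deeper GFP library and still called (adjusted p = 0.0217). In S3 poly(A) RNA it was 0.92 without the deeper library labelled Rrp6 (adjusted p = 0.188), and in RiboMinus RNA 1.53 without the deeper GFP library (adjusted p = 0.135), neither of them called.

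**Figure D2:**
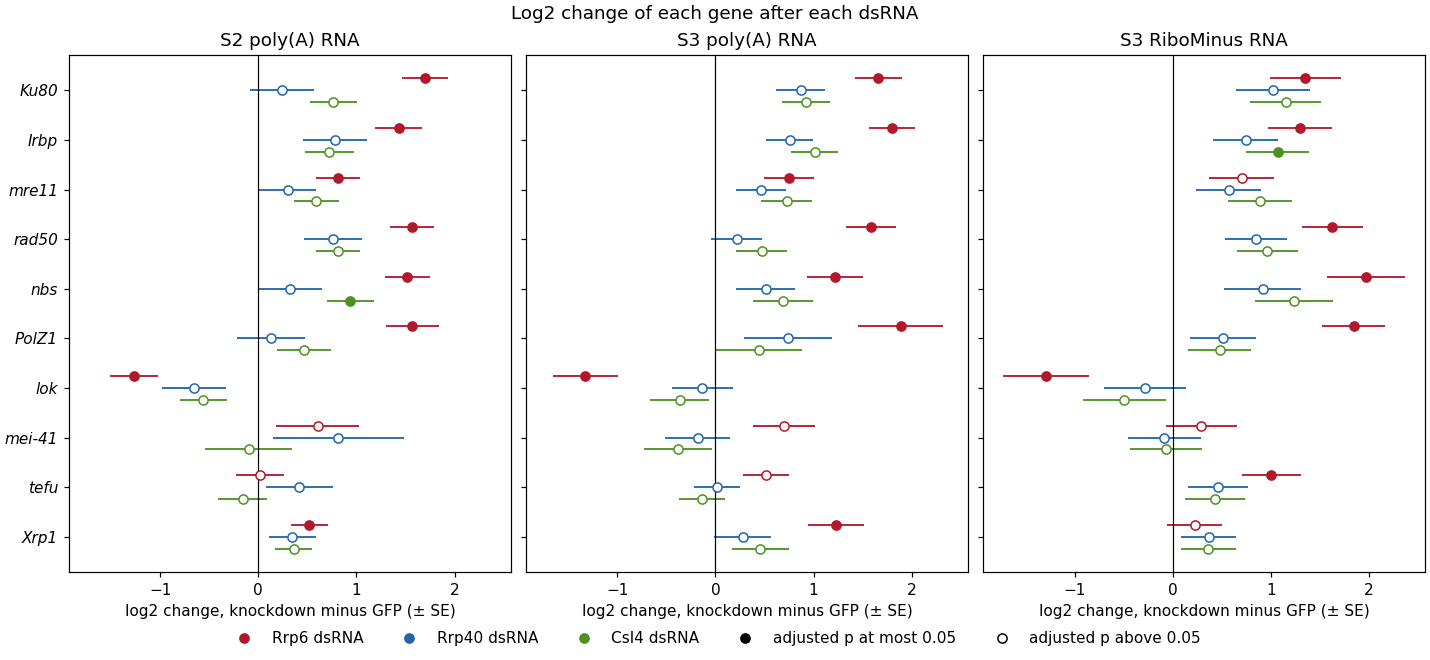
Log2 change (libraries labelled Rrp6, Rrp40 or Csl4 minus GFP) of each gene in the 3 fitted sets, with bars of 1 standard error and filled symbols where the edgeR adjusted p was at most 0.05. The filled symbols are nearly all those of Rrp6, with Ku80, Irbp, PolZ1, rad50 and nbs filled above 0 and lok below 0 in all 3 sets.

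Among the checkpoint kinases, lok, which encodes Chk2, fell. It had 25.4 and 34.9 CPM in S2 poly(A) libraries labelled Rrp6, 52.9 CPM with Rrp40, and 43.4 and 51.2 CPM with Csl4, against 59.2 and 88.1 CPM with GFP. Poly(A) RNA of S3 held 15.02 and 32.7 CPM with Rrp6, 40.8 and 63.1 CPM with Rrp40, and 43.7 and 38.5 CPM with Csl4, against 55.7, 49.2 and 47.9 CPM with GFP. RiboMinus RNA of S3 held 21.1 and 9.33 CPM with Rrp6, 40.7 and 41.1 CPM with Rrp40, and 30.9 and 59.6 CPM with Csl4, against 50.01 and 49.1 CPM with GFP. Every library labelled Rrp6 lay below every GFP library, and the lowest, at 9.33 CPM, held 1 read. The log2 changes with Rrp6 were -1.27 ± 0.25 (adjusted p = 0.00039), -1.33 ± 0.33 (adjusted p = 0.012) and -1.29 ± 0.44 (edgeR adjusted p = 0.021). The S3 poly(A) call was lost without the deeper library labelled Rrp6 (-0.70, adjusted p = 0.229) or GFP replicate 1 (-1.16, adjusted p = 0.0546), and the change was -2.00 without the shallower one labelled Rrp6 (adjusted p = 0.00065). The RiboMinus call was lost without the shallower library labelled Rrp6 (-1.13, adjusted p = 0.0565).

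The ATM homolog tefu had 63.5 and 52.3 CPM in S2 poly(A) libraries labelled Rrp6, 59.4 CPM with Rrp40, and 61.7 and 38.9 CPM with Csl4, against 73.2 and 38.2 CPM with GFP. Its S3 poly(A) values were 118 and 188 CPM with Rrp6, 105 and 104 CPM with Rrp40, and 89.0 and 103 CPM with Csl4, against 99.5, 105 and 99.7 CPM with GFP. Its S3 RiboMinus values were 342 and 261 CPM with Rrp6, 230 and 185 CPM with Rrp40, and 210 and 209 CPM with Csl4, against 168 and 133 CPM with GFP. The Rrp6 and GFP libraries overlapped in S2 and were apart in both S3 sets. The log2 change was 0.014 ± 0.25 in S2 (edgeR adjusted p = 0.97) and 0.52 ± 0.23 in S3 poly(A) RNA (adjusted p = 0.11), and tefu was called higher in the RiboMinus set, at 1.01 ± 0.30 (adjusted p = 0.0081). That call was lost without either GFP library (1.06 with adjusted p = 0.157 without the deeper one, 0.84 with adjusted p = 0.0586 without the shallower one) or the deeper library labelled Rrp6 (0.91, adjusted p = 0.197).

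The ATR homolog mei-41 was called in none of the sets. It had 19.3 and 6.70 CPM in S2 poly(A) libraries labelled Rrp6 against 10.8 and 8.11 CPM with GFP. In S3 it had 24.9 and 21.2 CPM with Rrp6 against 17.6, 16.8 and 9.06 CPM with GFP in poly(A) RNA, and 70.9 and 65.3 CPM with Rrp6 against 60.6 and 42.1 CPM with GFP in RiboMinus RNA. The groups overlapped in S2 and were apart in S3, with log2 changes of 0.60 ± 0.42 (adjusted p = 0.27), 0.70 ± 0.32 (adjusted p = 0.11) and 0.29 ± 0.37 (edgeR adjusted p = 0.64).

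Xrp1 was called in both poly(A) sets and not in the RiboMinus set. It had 1260 and 1189 CPM in S2 poly(A) libraries labelled Rrp6, 1018 CPM with Rrp40, and 1243 and 960 CPM with Csl4, against 885 and 826 CPM with GFP. Levels in S3 poly(A) RNA were 2362 and 1170 CPM with Rrp6, 1008 and 783 CPM with Rrp40, and 1148 and 881 CPM with Csl4, against 646, 737 and 866 CPM with GFP. Levels in S3 RiboMinus RNA were 1102 and 634 CPM with Rrp6, 1015 and 925 CPM with Rrp40, and 1146 and 783 CPM with Csl4, against 599 and 919 CPM with GFP. Libraries labelled Rrp6 lay above GFP in both poly(A) sets and overlapped it in RiboMinus RNA. Xrp1 rose with Rrp6 by 0.52 ± 0.19 in S2 (adjusted p = 0.033) and 1.23 ± 0.29 in S3 (adjusted p = 0.0091) in poly(A) RNA, and its change in RiboMinus RNA was 0.22 ± 0.28 (edgeR adjusted p = 0.64). The S2 call was lost without any one of the libraries labelled Rrp6 or GFP or the shallower one labelled Csl4, at 0.41 to 0.62 with adjusted p between 0.0794 and 0.253. The S3 poly(A) call was lost without the deeper library labelled Rrp6 (0.70, adjusted p = 0.153).

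Every library labelled Rrp6 lay above every GFP library for 7, 9 and 8 members in the 3 sets, and below for 1 member, lok, in each. Of all genes tested, 23.8%, 22.7% and 20.6% lay wholly above and 23.6%, 23.1% and 19.4% wholly below. With Csl4, 6, 5 and 5 members lay wholly above and 1, 1 and 0 wholly below. Of all genes, 12.6%, 11.8% and 13.4% lay above with Csl4 and 12.4%, 9.59% and 13.7% below. In the S3 sets 3 and 6 members lay above with Rrp40 and 0 and 1 below. The shares of all genes there were 7.86% and 9.59% above and 8.12% and 10.5% below.

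**Figure D3:**
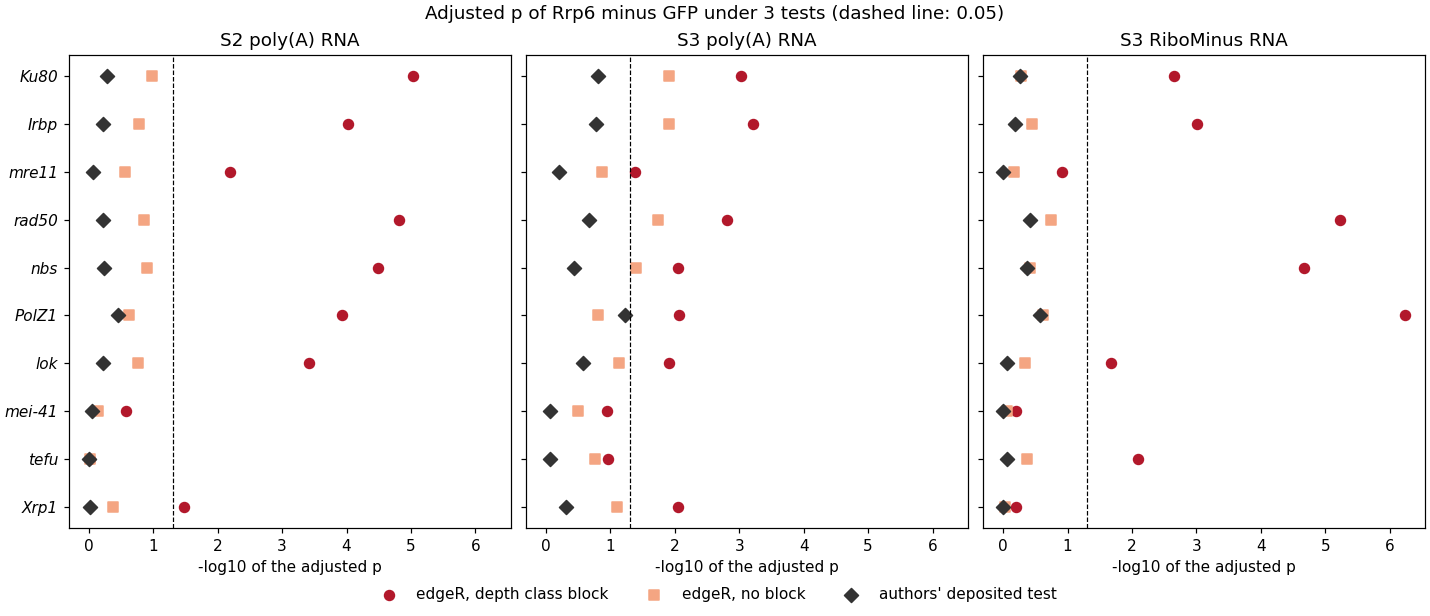
Minus log10 of the adjusted p of each gene for Rrp6 minus GFP in the 3 sets, from edgeR with the depth block, from edgeR without it and from the authors' deposited test, with a dashed line at 0.05. Without the block 4 genes pass the line in the poly(A) set of S3 and 0 in the other sets, and no gene passes it in the authors' test.

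The 4 members called without the block were Ku80 (adjusted p = 0.012), Irbp (0.012), rad50 (0.019) and nbs (0.041) in S3 poly(A) RNA. The members called with the block had adjusted p between 0.106 and 0.419 without it in S2 and between 0.181 and 0.522 in the RiboMinus set. In the authors' deposited tables for Rrp6, 2, 5 and 3 members had an unadjusted p under 0.05 in these sets, beside 8.75%, 14.8% and 10% of all genes with a p there. Their log2 changes were close to the fitted ones in S2, at 1.68 for Ku80, 1.54 for rad50 and -1.31 for lok in the authors' deposited table. For PolZ1 in S3 the authors' deposited table gave 1.31, below the 1.89 of the fit with the block.

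Under Csl4 dsRNA 2 calls were made in all, both of genes called with Rrp6 in the same set and direction. These comparisons share their GFP libraries with those of Rrp6 and are not independent of them. nbs rose in S2 poly(A) RNA by 0.94 ± 0.24 on the log2 scale (edgeR adjusted p = 0.038), where 1.82% of all genes were called higher. Irbp rose in S3 RiboMinus RNA by 1.07 ± 0.32 (edgeR adjusted p = 0.046), where 1.69% of all genes were called higher. No member was called in S3 poly(A) RNA, where 0.24% of genes were called either way, and the nearest was Irbp at 1.01 ± 0.24 (adjusted p = 0.14). The call of nbs was lost without either GFP library, either library labelled Csl4 or the deeper one labelled Rrp6, at 0.82 to 1.12 with adjusted p between 0.0532 and 0.353. That of Irbp was lost without any library of the GFP, Csl4 or Rrp40 groups, at 0.86 to 1.17 with adjusted p between 0.0544 and 0.684. Ku80 had log2 changes of 0.76 ± 0.24, 0.92 ± 0.24 and 1.15 ± 0.36 with Csl4 in the 3 sets (edgeR adjusted p = 0.12, 0.19 and 0.059). PolZ1 had 0.46 ± 0.28, 0.44 ± 0.44 and 0.48 ± 0.32, and lok -0.56 ± 0.24, -0.36 ± 0.30 and -0.49 ± 0.43. The median log2 change of the members was 0.53, 0.46 and 0.68, beside -0.013, -0.00099 and 0.013 over all genes tested. At an unadjusted p under 0.05 there were 6, 4 and 5 of the 10 members, beside 12.5%, 10.5% and 11.3% of all genes tested.

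Under Rrp40 dsRNA edgeR called no member in any set, beside 0.101%, 0% and 0.217% of all genes called either way. At an unadjusted p under 0.05 there were 2 of the 10 members in the S3 poly(A) set and 4 in the RiboMinus set. The shares of all genes tested were 5.52% and 3.66% there. No such count is given for S2, which had 1 library labelled Rrp40. DESeq2 also called no member. The median log2 change of the members was 0.33, 0.37 and 0.54 in the 3 sets, beside 0.0016, 0.0088 and 0.001 over all genes tested. The S2 values rest on 1 library labelled Rrp40. Irbp had log2 changes of 0.78 ± 0.32, 0.76 ± 0.24 and 0.74 ± 0.33 and Ku80 of 0.24 ± 0.32, 0.87 ± 0.25 and 1.02 ± 0.37. For rad50 they were 0.76 ± 0.30, 0.22 ± 0.26 and 0.85 ± 0.32, and for lok -0.66 ± 0.33, -0.13 ± 0.31 and -0.28 ± 0.42. The authors' deposited tables called 0.0722%, 0.0258%, 1.73% and 0.204% of genes under Rrp40 and 0.0164%, 0.0131%, 0.00944% and 0.436% under Csl4, with no member among them. The order here is poly(A) and RiboMinus RNA of S2, then the same of S3.

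A direct comparison of the dsRNAs separated a few genes. Against Csl4, libraries labelled Rrp6 were higher in S2 poly(A) RNA for Ku80 by 0.94 ± 0.23 (edgeR adjusted p = 0.0095), PolZ1 by 1.11 ± 0.26 (0.0078) and rad50 by 0.75 ± 0.22 (0.028), where 7.94% of all genes were called higher. In S3 poly(A) RNA rad50 was the only member called, at 1.11 ± 0.28 (adjusted p = 0.031, background 7.31%), and in RiboMinus RNA it was PolZ1, at 1.37 ± 0.30 (adjusted p = 0.0013, background 2.04%). In S2 the calls of Ku80 and rad50 were lost without either library labelled Csl4 or the deeper one labelled Rrp6, and that of rad50 also without the shallower one, at log2 differences of 0.50 to 1.27 and adjusted p between 0.054 and 0.324. That of PolZ1 was lost without the deeper library labelled Csl4 (1.24, adjusted p = 0.0914) or Rrp6 (0.50, adjusted p = 0.464). Among S3 poly(A) libraries the call of rad50 was lost without GFP replicate 1, either library labelled Csl4 or the deeper one labelled Rrp6, at 0.71 to 1.28 with adjusted p between 0.0656 and 0.253. In RiboMinus RNA PolZ1 lost its call without the deeper library labelled GFP, Rrp40 or Rrp6 or the shallower one labelled Csl4, at 1.00 to 1.39 with adjusted p up to 0.396, and had 2.49 without the deeper one labelled Csl4 (adjusted p = 0.0221). For mre11 no difference between Rrp6 and Csl4 was detected, with 95% intervals of the log2 difference from -0.24 to 0.68, from -0.60 to 0.65 and from -0.81 to 0.44.

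Against Rrp40, libraries labelled Rrp6 were higher in S2 poly(A) RNA for Ku80 by 1.46 ± 0.32 (edgeR adjusted p = 0.0049), PolZ1 by 1.44 ± 0.37 (0.013) and nbs by 1.198 ± 0.32 (0.018), with 6.6% of all genes called higher. These 3 calls rest on 1 library labelled Rrp40, which was assumed to vary like the other groups. S3 poly(A) libraries labelled Rrp6 were higher for Irbp by 1.04 ± 0.26 (adjusted p = 0.018) and rad50 by 1.37 ± 0.29 (0.0098), with 13.7% of all genes called higher. There lok was lower, at -1.19 ± 0.36 (adjusted p = 0.034), with 12.4% of genes called lower. By the titles, the S3 poly(A) replicates were 1 and 3 for Rrp6 and 2 and 3 for Rrp40. These differences are therefore partly confounded with the replicate number. In S3 RiboMinus RNA PolZ1 was higher by 1.33 ± 0.32 (adjusted p = 0.0014, background 7.59%). In S2 the call of PolZ1 was lost without the deeper library labelled Rrp6 (1.10, adjusted p = 0.0903) and that of nbs without the shallower one (1.03, adjusted p = 0.118). For S3 poly(A) RNA all 3 calls were lost without the deeper library labelled Rrp6 or either one labelled Rrp40, and that of lok also without GFP replicate 1 or 2, with adjusted p between 0.0542 and 0.352. There the log2 differences were 0.77 to 1.13 for Irbp, 0.93 to 1.55 for rad50 and -1.45 to -0.59 for lok, which was -1.87 and called without the shallower one labelled Rrp6 (adjusted p = 0.0022). In RiboMinus RNA that of PolZ1 was lost without the deeper library labelled Rrp40 (0.53, adjusted p = 0.615) or Rrp6 (1.17, adjusted p = 0.209). Between Csl4 and Rrp40 edgeR called no member, beside 0.0253%, 0% and 0.0845% of all genes, and no member had an unadjusted p under 0.05. All of the differences between dsRNAs lost their call without the block.

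**Figure D4:**
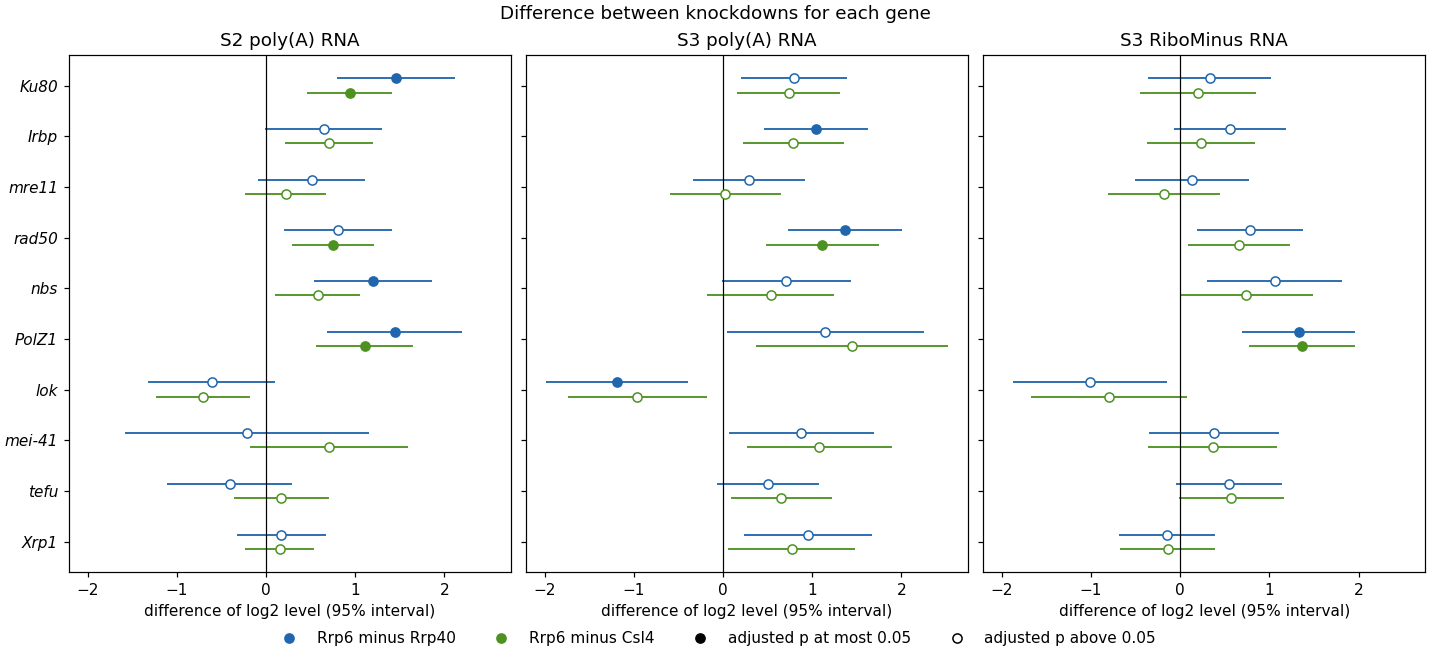
Difference in log2 level between libraries labelled Rrp6 and those labelled Rrp40 or Csl4 for each gene in the 3 sets, with 95% intervals. The points of PolZ1, Ku80 and rad50 lie above 0 and those of lok below 0 in every comparison, and the intervals of mre11 include 0 throughout.

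No member was called for a difference in response between lines or RNA fractions. For the S3 minus S2 difference of the Rrp6 effect in poly(A) RNA, edgeR called no member, against 3.43% of all genes. The nearest was Xrp1, at 0.68 ± 0.38 (adjusted p = 0.42) with a 95% interval from -0.14 to 1.503. Ku80 gave -0.058 ± 0.34, with an interval from -0.79 to 0.67. The RiboMinus minus poly(A) difference of the Rrp6 effect in S3 called no gene at all (0%), and the value for Xrp1 was -1.01 ± 0.44 with an adjusted p of 1. Its 95% interval before adjustment, from -1.94 to -0.081, did not include 0. The same differences for Rrp40 were called in 0% and 0.0248% of genes and for Csl4 in 0% and 0%, with no member among them. By the titles, S3 libraries labelled Rrp6 or Csl4 were replicates 1 and 3 in poly(A) RNA and 2 and 3 in RiboMinus RNA. Fraction and replicate are therefore partly confounded for these dsRNAs.

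Baseline levels in GFP cells did differ for a few. In GFP poly(A) libraries tefu was higher in S3 than in S2 by 1.08 ± 0.24 on the log2 scale (edgeR adjusted p = 0.0028), the only member among the 38.1% of genes called. In S3 GFP cells, RiboMinus RNA held more mei-41 than poly(A) RNA by 1.91 ± 0.34 (adjusted p = 0.00088) and more Irbp by 0.93 ± 0.26 (adjusted p = 0.025), where 13% of all genes were called. Of the libraries, mei-41 had 60.6 and 42.1 CPM in RiboMinus RNA, against 17.6, 16.8 and 9.06 CPM in poly(A) RNA. The call of tefu was lost without GFP replicate 3 of S2 (0.90, adjusted p = 0.0859) and that of mei-41 without the deeper RiboMinus GFP library (1.74, adjusted p = 0.217). That of Irbp was lost without either RiboMinus GFP library or without GFP replicate 1 or 2 of poly(A) RNA, at 0.78 to 0.97 with adjusted p between 0.0777 and 0.337.

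S2 RiboMinus libraries were too shallow for more than counts. Ratios are given per read outside the targeted genes, with exact 95% intervals that cover counting error only. The Rrp6 and GFP libraries held 24 and 1 reads of rad50, a ratio of 28.3 with an interval from 4.61 to 1162. Irbp had 20 and 4 reads (ratio 5.89, interval 1.97 to 23.7), PolZ1 21 and 10 (2.47, 1.11 to 5.88) and Ku80 13 and 5 (3.06, 1.02 to 10.97). lok had 1 and 4 reads (0.294, 0.00598 to 2.98), and the intervals of mre11, nbs, mei-41, tefu and Xrp1 also included 1. With Csl4, rad50 had 18 reads against 1 with GFP (ratio 16.3, interval 2.57 to 679), so the single GFP read of rad50 sets both of its ratios. With Csl4 the intervals of mei-41 (9 reads against 1, ratio 8.14, interval 1.13 to 357) and Xrp1 (53 against 30, 1.60, 1.003 to 2.59) also lay above 1. With Rrp40 the intervals of all 10 genes included 1, and Ku80 had 1 read against 5 with GFP (0.116, 0.00245 to 1.04).

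Other repair and checkpoint genes moved in both directions. Of 60 listed genes, 52, 53 and 52 were tested with Rrp6 in the 3 sets. Those called higher numbered 16, 14 and 10 (30.8%, 26.4% and 19.2%) and those called lower 10, 10 and 3 (19.2%, 18.9% and 5.77%), beside 20.2%, 19.7% and 12.4% higher and 16.9%, 16.4% and 7.35% lower among all genes. The median log2 change was -0.075, 0.0033 and 0.19. Without the block 0, 7 and 0 of them were called higher and 0, 2 and 0 lower.

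Of 4 end joining genes tested, 2, 1 and 2 were called higher and none lower. DNA ligase 4 (DNAlig4), which seals the joined ends, rose by 1.28 ± 0.27, 1.65 ± 0.31 and 1.73 ± 0.50 on the log2 scale (edgeR adjusted p = 0.00082, 0.0035 and 0.0058). CG12728, matched to the list through an XRCC4 synonym whose meaning is uncertain, rose in the first and the third set by 1.74 ± 0.34 and 2.01 ± 0.70 and had 1.36 ± 0.50 in the second. The S3 poly(A) call of DNAlig4 was lost without the deeper library labelled Rrp6 (1.08, adjusted p = 0.104), and the RiboMinus call of CG12728 without the shallower GFP one (1.86, adjusted p = 0.0689).

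Of 4 other translesion synthesis genes tested, 3, 3 and 2 were called higher and none lower. PolZ2, the accessory subunit of polymerase zeta, rose by 0.92 ± 0.30, 1.43 ± 0.27 and 2.52 ± 0.56 (edgeR adjusted p = 0.018, 0.0032 and 0.00018). PolH, polymerase eta, rose by 0.96 ± 0.24, 1.62 ± 0.29 and 1.19 ± 0.37. PolI, polymerase iota, rose by 1.67 ± 0.24 and 1.84 ± 0.40 in poly(A) RNA and had 0.80 ± 0.41 in RiboMinus RNA (adjusted p = 0.16). Without the deeper library labelled Rrp6 the S3 poly(A) calls of PolI (0.58, adjusted p = 0.327) and PolH (1.196, adjusted p = 0.0807) were lost, as was the S2 call of PolH (1.06, adjusted p = 0.0872). In S2 PolZ2 lost its call without the shallower library labelled GFP (0.56, adjusted p = 0.212) or Rrp6 (0.54, adjusted p = 0.187), while its change was 1.56 and 1.51 without the deeper ones, and in RiboMinus RNA PolH lost its call without the deeper (1.1998, adjusted p = 0.37) or shallower (1.04, adjusted p = 0.0672) GFP library.

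Of 7 other checkpoint genes tested, none was called higher and 3, 1 and 1 lower. Claspin, a mediator of the ATR signal, fell by 1.51 ± 0.24 and 1.57 ± 0.29 in poly(A) RNA (log2 changes below 0; edgeR adjusted p = 5.6e-05 and 0.0032) and had -1.18 ± 0.49 in RiboMinus RNA. mus101, the fly TopBP1 homolog, fell by 0.98 ± 0.31 in S2 and by 1.10 ± 0.38 in the RiboMinus set, and had -0.86 ± 0.31 in the set between them (adjusted p = 0.054). Its S2 call was lost without either GFP library or the deeper one labelled Rrp6, at -1.35 to -0.89 with adjusted p between 0.0564 and 0.196. Its RiboMinus call was lost without either library labelled Csl4 or the deeper one labelled Rrp40, at -1.05 to -1.04 with adjusted p between 0.0666 and 0.0982, and without the deeper one labelled Rrp6 (-0.37, adjusted p = 0.855).

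Of 12, 13 and 13 recombination genes tested, 1, 2 and 1 were called higher and 3, 3 and 0 lower. The gene RPA1, whose product coats single-stranded DNA, rose by 1.12 ± 0.20, 1.26 ± 0.25 and 1.28 ± 0.29, and Top3alpha, a topoisomerase, fell by 0.77 ± 0.23 and 0.90 ± 0.23 in poly(A) RNA and had -0.83 ± 0.37 in RiboMinus RNA. The RiboMinus call of RPA1 was lost without the deeper GFP library (0.93, adjusted p = 0.182), and its S3 poly(A) change was 0.76 without the shallower library labelled Rrp6 (adjusted p = 0.0354). The S2 call of Top3alpha was lost without either library labelled Rrp6 (-0.97 and -0.67, adjusted p = 0.0765 and 0.057), and its S3 call without the deeper one labelled Rrp6 or GFP replicate 1 or 2, at -0.84 to -0.81 with adjusted p up to 0.127.

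Of 14 excision and mismatch repair genes, 5, 4 and 2 were called higher and 3, 4 and 2 lower. The nucleotide excision gene Xpc rose by 1.45 ± 0.21, 1.58 ± 0.26 and 1.87 ± 0.30 (edgeR adjusted p = 1.9e-05, 0.0017 and 5.7e-08), and XRCC1, a scaffold of single-strand break repair, rose by 0.75 ± 0.24, 0.97 ± 0.22 and 1.14 ± 0.39. The mismatch repair gene Msh6 fell by 1.79 ± 0.26 and 0.90 ± 0.29 in poly(A) RNA and had -0.51 ± 0.35 in RiboMinus RNA. The AP endonuclease gene Rrp1, unrelated to the exosome despite its name, fell by 1.25 ± 0.24, 1.34 ± 0.24 and 1.02 ± 0.35. Calls of Xpc were kept in every fit without 1 library, as was that of Msh6 in S2. Among S3 poly(A) calls, that of Msh6 was lost without GFP replicate 1 or 2 or the deeper library labelled Rrp6, at -0.82 to -0.50 with adjusted p between 0.0982 and 0.38, while its change was -1.42 without the shallower one labelled Rrp6 (adjusted p = 0.0029). XRCC1 lost its S2 call without the deeper GFP library or either one labelled Rrp6 (0.55 to 1.00), its S3 poly(A) call without the deeper one labelled Rrp6 (0.63), and its RiboMinus call without the shallower one labelled GFP (0.81) or Rrp40 (0.99), with adjusted p between 0.0548 and 0.196. The RiboMinus call of Rrp1 was lost without the deeper library labelled Rrp6 (-0.20, adjusted p = 0.889) or GFP (-0.28, adjusted p = 0.821) or the shallower one labelled Csl4 (-0.95, adjusted p = 0.0662).

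Of the crosslink repair genes, 0, 1 and 0 were called higher and 0, 2 and 0 lower out of 5, 5 and 4. In the list of p53 and its damage targets, 3, 2 and 2 of 4 genes were called higher and 1, 0 and 0 lower. p53 had log2 changes of 2.70 ± 0.23, 3.60 ± 0.46 and 2.81 ± 0.32 and the death gene hid 1.63 ± 0.31, 5.11 ± 0.53 and 3.76 ± 0.78, all called. Irbp18, a C/EBP-type partner with which Xrp1 forms dimers in flies, rose by 0.77 ± 0.24, 1.15 ± 0.31 and 1.68 ± 0.57 (edgeR adjusted p = 0.017, 0.017 and 0.020), also in RiboMinus RNA, where Xrp1 itself was not called. Its call was lost in S2 without the shallower library labelled Rrp6 (0.43, adjusted p = 0.228) or GFP (0.46, adjusted p = 0.208), and its change was 1.201 and 1.16 without the deeper ones. In S3 poly(A) RNA it was lost without either library labelled Rrp6 or GFP replicate 1, at 0.86 to 1.23 with adjusted p up to 0.0838, and in RiboMinus RNA without the shallower GFP one (1.38, adjusted p = 0.0811). Under Rrp40 no listed gene was called, and under Csl4 RPA1 and p53 were called higher in S2 and none in the other sets.

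**Figure D5:**
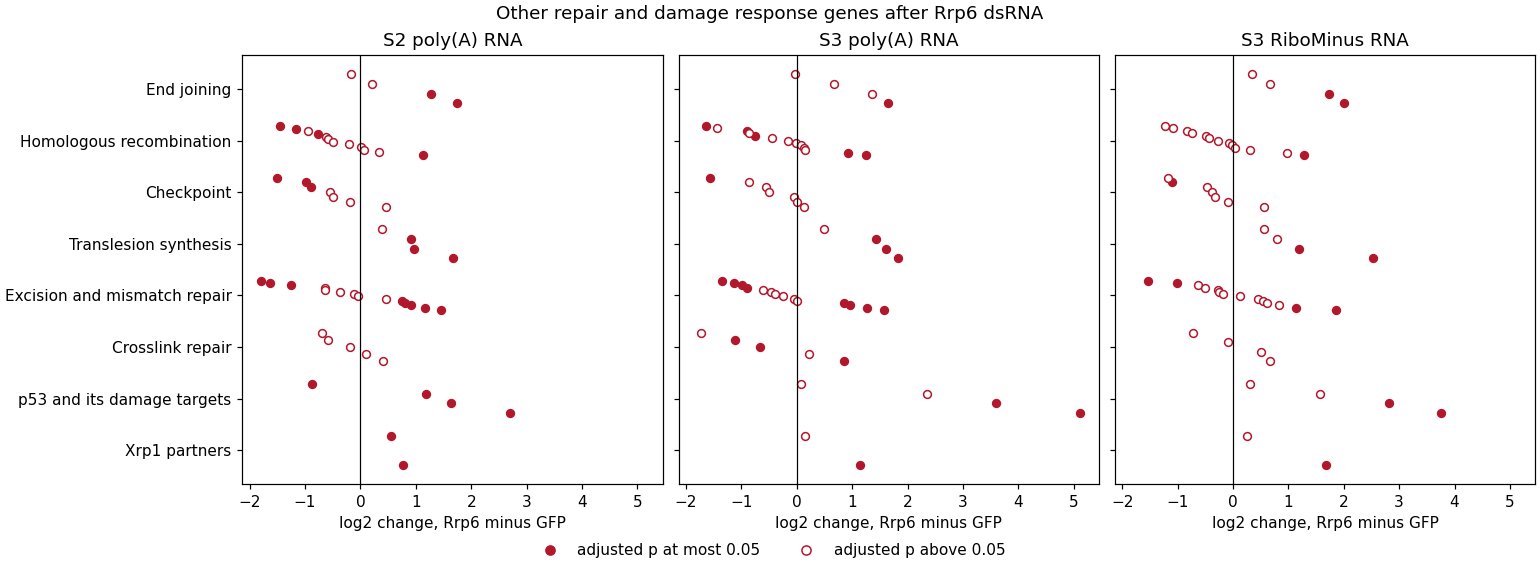
Log2 change of the other repair and checkpoint genes with Rrp6 dsRNA relative to GFP, by list and set, with filled symbols where the edgeR adjusted p was at most 0.05. Filled symbols of translesion and end joining genes all lie above 0, those of checkpoint genes all below, and those of excision and mismatch repair genes on both sides.

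Across the 24 libraries of the 3 sets, after removal of the mean of each set and depth class, the 36 pairs of members other than lok had Pearson correlations between 0.238 and 0.951. The lowest was that of mre11 with mei-41 and the highest that of Irbp with rad50. The 9 pairs with lok ran from -0.872 to -0.556. Over all pairs of the 7162 genes tested in every set the quartiles were -0.286 and 0.287. These values describe libraries that share their dsRNA groups and controls. Among these 7162 genes, the patterns most like Ku80 were those of CG42365 (r = 0.941), CR18228 (0.916) and FBgn0036122 (0.898). For PolZ1 they were puml (0.955), CG9813 (0.939) and Fer1HCH (0.931), and for Xrp1 CG42524 (0.901), CG11710 (0.870) and CG7142 (0.856).

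Some members share their span with another gene in a gene reference that was not the dm3 annotation used for the counts. The counting was not stated to use strand, and HTSeq reports ambiguous reads in a row of their own. How reads from the overlaps were assigned was not tested. Nop17l, which overlaps PolZ1, had log2 changes with Rrp6 of 0.80 ± 0.23, 0.84 ± 0.32 and 0.31 ± 0.32 (edgeR adjusted p = 0.0081, 0.062 and 0.55). vls, which overlaps lok, had -0.95 ± 0.26, -1.31 ± 0.25 and -0.95 ± 0.45 (adjusted p = 0.0060, 0.0037 and 0.13), the direction of lok. CG9981, which overlaps mei-41, was called higher in S3 poly(A) RNA at 1.84 ± 0.47 (adjusted p = 0.014). CG14174, which overlaps nbs, was called in none of the sets. Irbp also holds snoRNA:Irbp-a and mre11 overlaps Osi21, neither of which was analysed here. The part of these neighbours in the members' values was not tested.

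The neuronal gene elav was called higher with Rrp6 in S2 (1.32 ± 0.34, edgeR adjusted p = 0.0048) and the RiboMinus set (1.12 ± 0.38, adjusted p = 0.023). There 20.2% and 12.4% of all genes were called higher. In S3 poly(A) RNA its change was 1.03 and not called. Fits without the block or 1 library were not examined for elav. The 2 neuronal markers summed to 29.6 to 35.2 CPM in S2 poly(A) libraries labelled Rrp6 and 11.7 to 13.1 CPM in GFP libraries. In S3 the sums were 18.0 to 57.7 against 13.7 to 20.3 CPM in poly(A) RNA. They were 74.3 to 105 against 34.1 to 65.1 CPM in RiboMinus RNA. Syt1, the other neuronal marker, was near 0 throughout. In S3 the hemocyte genes summed to 2297 to 2448 CPM in poly(A) libraries labelled Rrp6 and 2335 to 4018 CPM in GFP libraries, and to 2223 to 3856 CPM and 2395 to 5949 CPM in RiboMinus libraries. Their part in the members' changes was not tested.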

How the data were processed

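RNA-seq of 34 samples was analysed, and 14 ChIP-seq samples were not used here. Per the submitters' processing notes, DESeq 1.9.11 was among the tools, along with TopHat 1.4.1, HTSeq 0.5.3p9, cutadapt 1.0 and CASAVA 1.8, and the build was dm3. The authors deposited, for each knockdown against GFP, the group means of size-factor-normalised reads (signal), their fold ratio, its log2 and p-values with adjusted p-values. Whole reads per library were recovered from the deposited means. All values came out whole within 0.0001, and GFP libraries held in several tables gave the same reads in 12 of 12 checks. Rows without a gene, which HTSeq adds, made up 80.3% to 91.9% of the mean totals and stayed out of all sums. Technical repeats of a replicate counted as 1 library. The design had foreseen counts, so the count test was run on the recovered reads.

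The test was edgeR 4.0.16 (R 4.3.3, glmQLFit) with TMM scaling and the default filter, 1 fit per set with all 4 dsRNA groups (7905, 7923 and 8286 genes), Benjamini-Hochberg adjustment and depth class as a block. The standard error is the size of the log2 change divided by the square root of F. CPM use TMM-scaled totals, and those of marker and targeted genes use totals over genes. Headers number GFP poly(A) libraries and the single S2 libraries. Other knockdown libraries are known only as deeper or shallower, and the lone S2 Rrp40 library entered as shallower. The block was taken over from an earlier account of these data. Deeper minus shallower differences, compared between groups afterwards, correlated in every pair. The correlations were 0.687 to 0.719 in S2 poly(A) RNA, 0.354 to 0.750 in S3 poly(A) RNA and 0.516 to 0.627 in S3 RiboMinus RNA. The titles number the libraries as biological replicates without saying whether these were separate cultures. A p-value therefore reflects only how these samples spread, which may be technical. The test also draws the spread of each gene towards a spread shared over genes. The weight of that shared spread, in prior degrees of freedom, was 20.4 for S2 and 6.09 for poly(A) RNA of S3. For the RiboMinus set this weight was infinite. The p-values of that set thus rest on the shared spread alone and do not measure how each gene varied between libraries. The genes, lists and block were chosen with earlier results of these data known. Named beside the 10 genes are the targeted genes, up to 5 genes per list called in at least 2 sets in one direction with Rrp6, and the 3 genes most like Ku80, PolZ1 and Xrp1, and 1 gene of a list is not reported here. Genes that overlap a member, elav, NimC1, gcm and Syt1, and RPA1 and p53 under Csl4, were named after their values were seen. Alternatives were no block, DESeq2 1.42.0, RLE scaling, no filter, each knockdown with its controls alone, leaving out each library, and the authors' test.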

Additional observations from a re-analysis of the deposited data

How the results depend on the processing

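The block on depth class decided most calls. Without this block, members called higher with Rrp6 numbered 0, 4 and 0 in the poly(A) set of S2, the poly(A) set of S3 and the RiboMinus set (7, 7 and 6 with it), and members called lower 0, 0 and 0 (1, 1 and 1 with it). Members called with Csl4 were 0, 0 and 0, the differences between Rrp6 and Csl4 or Rrp40 gave 0 in every set, and the other listed genes gave 0, 7 and 0 higher and 0, 2 and 0 lower. The GFP level differed between lines for 0 members and between fractions for 1. With the authors' test 0 members were called in every comparison. Under DESeq2 the Rrp6 counts were 7, 8 and 5 higher and 1, 1 and 0 lower, the Csl4 counts 0, 2 and 0, and in the RiboMinus set 551 genes were called higher and 195 lower over all genes, against 1027 and 609 with edgeR. RLE scaling gave 2, 0 and 2 members with Csl4, 4, 5 and 2 between Rrp6 and Rrp40, and kept all Rrp6 counts. With no filter on low counts tefu with Rrp6 in S2 was -0.061, Csl4 called 0 members in RiboMinus RNA, the S3 poly(A) differences were 3 from Csl4 and 5 from Rrp40, 6 listed genes were higher and 4 lower in RiboMinus RNA, and the GFP fraction difference was called for 1. With each knockdown and its controls alone, 0 members were lower with Rrp6 and 0 called with Csl4 in RiboMinus RNA. This fit could not be made for Rrp40 in S2, which left no residual degrees of freedom.

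Leaving out 1 library at a time gave 5 to 7, 4 to 7 and 0 to 6 members higher with Rrp6 in the 3 sets and 1 to 1, 0 to 1 and 0 to 1 lower. The 0 higher in RiboMinus RNA came without its deeper GFP library, and the 4 in S3 poly(A) RNA without the deeper library labelled Rrp6. Csl4 gave 0 to 2, 0 to 0 and 0 to 4, Rrp6 minus Csl4 0 to 5, 0 to 5 and 0 to 1, Rrp6 minus Rrp40 2 to 4, 0 to 6 and 0 to 1, and listed genes 10 to 16, 5 to 14 and 2 to 10 higher and 5 to 11, 2 to 16 and 0 to 5 lower. GFP levels gave 0 to 1 between lines and 0 to 2 between fractions. Where an arm kept 1 library, it was assumed to vary like the others. Shares of all genes called are not given for the fits of this section, apart from the DESeq2 counts in the RiboMinus set. Over all genes, the share called with Rrp6 in S2 poly(A) RNA was 37.1% with the block and 0.114% without it. The counts of members in this section therefore do not compare the members with other genes. Signs changed for tefu in S2 (-0.21 to 0.39) and S3 poly(A) RNA (-0.017 to 0.86), mei-41 in S2 (-0.13 to 0.76) and Xrp1 in RiboMinus RNA (-0.36 to 0.63), none of them called in all fits. lok was left out by the filter in 4 of 8 such RiboMinus fits. For the 23 calls with Rrp6, all 317 settings kept the direction, 240 kept the call and 77 lost it. No call of Rrp40, of Csl4 minus Rrp40 or of a difference in response between lines or fractions appeared in any setting run. The 317 settings share most of their libraries, and some leave out a library of neither Rrp6 nor GFP. Calls kept across them are therefore not independent of one another. The cause of the shifts between settings was not tested. In the shallower RiboMinus GFP library, with 138219 reads, 3 reads stood for 21.1 CPM, and a level below that could not be told from 0.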
